A study of Mus musculus with 32 samples.

Results

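The genes described here are 10 that mark basophils, mast cells and eosinophils: Prss34, Mcpt8, Cpa3, Gzmb, Fcer1a, Ms4a2, Hdc, Epx, Prg2 and Prg3. They are 10 of the 24421 genes in the count table, found there by symbol, and all 10 passed the filter on low counts. They were chosen from counts of these same libraries, with the values of Prss34 in HSCs, MPP4 and CLPs and of Epx in MPP1 already known, so their levels and age differences are given as a description, with no p-value.

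RNA was sequenced from 8 fractions of marrow sorted from female C57BL/6 mice, taken at 10 weeks (young) or 20 months (aged), with no treatment and no engineered allele named in the labels. Each of the 16 groups had 2 libraries, which makes 32. The HSCs and the multipotent progenitors (MPPs) were Lin-, Sca-1+ and c-kit+. HSCs were further CD34- and CD150+, MPP1 CD34+ and CD150+ without CD48, MPP2 CD150+ and CD48+, MPP3 CD150- and CD48+ without Flt3, and MPP4 CD48+ and Flt3+. Granulocyte and macrophage progenitors (GMPs) were Sca-1-, FcgR+ and CD34+, and megakaryocyte and erythroid progenitors (MEPs) were FcgR- and CD34-. Common lymphoid progenitors (CLPs) were positive for the IL-7 receptor with low Sca-1 and c-kit, and their stain in the study's methods also included Flt3. The lineage antibodies in the study's methods, against CD4, CD8, B220, Ter-119, Gr-1 and the IL-7 receptor, did not include one against the IgE receptor, and that against the IL-7 receptor was left out for CLPs.

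The study states in one place that marrow was pooled and sorted in duplicate, and calls the duplicates biological elsewhere. Errors and p-values therefore measure the spread between these libraries, which may be technical. Levels are given in CPM, the counts of a gene scaled to a common library total, without the normalization factors of the fit. Library totals were 11237384 to 17723245 counts, and 3 counts, the limit that a count of 0 allows, equalled 0.169 to 0.267 CPM. That limit covers counting error only, because amplified reads are not independent molecules. The fractions carried genes of their gates. Il7r was at 151 CPM in both young and 183 to 185 CPM in aged CLPs. Some gate genes differed between the ages. Ly6a, which encodes Sca-1, was at 33.0 to 34.1 CPM in young and 199 to 204 CPM in aged CLPs. Il7r in MEPs was at 9.54 to 16.1 CPM in young and 0.178 to 0.412 CPM in aged libraries. Mpo was between 55774 and 58684 CPM in GMPs, and Klf1 between 932 and 1063 CPM in MEPs. Flt3 was between 1123 and 1131 CPM in young MPP4 and lower, between 682 and 781 CPM, in aged MPP4. Slamf1, which encodes CD150, was between 56.5 and 80.4 CPM in HSCs. In sorted populations measured as a whole, fewer cells of a type and less RNA per cell cannot be told apart.

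Basophils and mast cells carry the high-affinity receptor for IgE and release histamine, proteases and lipid mediators from granules when antigen crosslinks it. Eosinophils store cationic proteins and a peroxidase in their granules and arise in marrow under the influence of IL-5. All 3 cell types descend from myeloid progenitors, and GATA factors together with C/EBP factors and RUNX1 act in their formation.

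Promoters are shown first, because GATA factors are known regulators of these lineages. The upstream 250 bases, read from RefSeq (GRCm38.p6), were found for 9 of the 10 genes, all but Prg2. Each is given 5′ to 3′ on the coding strand and ends at the base before the transcript start, and capitals mark AGATAA or TGATAA or AGATAG or TGATAG on either strand. The first 3 genes below have such letters within 50 bases of the start, and Epx has none in the window.
Prss34 at chr17:25298144-25298393, plus strand: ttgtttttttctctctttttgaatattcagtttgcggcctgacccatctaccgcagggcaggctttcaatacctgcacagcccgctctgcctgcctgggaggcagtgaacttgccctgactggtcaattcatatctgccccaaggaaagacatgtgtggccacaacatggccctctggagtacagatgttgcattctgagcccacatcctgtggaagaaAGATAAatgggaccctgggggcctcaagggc
Cpa3 at chr3:20242182-20242431, minus strand: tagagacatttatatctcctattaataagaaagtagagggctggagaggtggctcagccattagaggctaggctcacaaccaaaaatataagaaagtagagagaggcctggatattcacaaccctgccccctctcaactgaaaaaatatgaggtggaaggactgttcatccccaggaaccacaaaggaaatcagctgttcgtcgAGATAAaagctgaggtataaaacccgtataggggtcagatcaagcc
Ms4a2 at chr19:11623720-11623969, minus strand: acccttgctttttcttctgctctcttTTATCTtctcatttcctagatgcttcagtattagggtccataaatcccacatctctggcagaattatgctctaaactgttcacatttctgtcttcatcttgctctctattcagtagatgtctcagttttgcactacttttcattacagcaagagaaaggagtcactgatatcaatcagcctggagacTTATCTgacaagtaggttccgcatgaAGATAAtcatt
Epx at chr11:87875537-87875786, minus strand: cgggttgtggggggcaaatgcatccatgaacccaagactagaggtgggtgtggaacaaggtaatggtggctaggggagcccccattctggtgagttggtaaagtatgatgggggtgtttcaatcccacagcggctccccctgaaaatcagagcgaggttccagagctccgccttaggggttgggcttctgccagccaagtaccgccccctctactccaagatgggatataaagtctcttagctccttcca

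The GATA letters began 31 bases before the start in Prss34, 46 bases before it in Cpa3, and 224, 37 and 11 bases before it in Ms4a2. They were present in 6 of 9 member promoters (66.67%), namely those of Prss34, Cpa3, Fcer1a, Ms4a2, Hdc and Prg3, and in 26.54% of all 32851 promoter windows of the same length. The letters TGTGGT, on either strand, were in 5 of 9 (55.56%), those of Mcpt8, Cpa3, Fcer1a, Prg3 and Gzmb, and in 14.05% of all windows. The letters TTGCNNAA or TTGNGCAA were in 1 of 9 (11.11%) against 9.564%, and GAGGAA was in 2 of 9 (22.22%) against 23.25%. No match of the GATA letters overlapped one of TGTGGT. A match is a run of letters in the window, not a site of binding. The RefSeq starts of Hdc and Mcpt8 lie inside the GENCODE genes, and those of Fcer1a and Gzmb match no GENCODE transcript start.

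In GRCm38 (GENCODE M21) Prss34, a tryptase-like serine protease of basophils, lies at chr17:25298394-25300165 on the plus strand. Mcpt8, the basophil granule protease used to mark that lineage, lies at chr14:56082166-56085273 and Gzmb, the cytotoxic protease granzyme B, at chr14:56258838-56262260, both on the minus strand in the granule protease cluster. Cpa3, mast cell carboxypeptidase A, lies at chr3:20215620-20242181 on the minus strand. The IgE receptor alpha chain gene Fcer1a lies at chr1:173221284-173227214 and the beta chain gene Ms4a2 at chr19:11615523-11623719, both on the minus strand. Hdc, the enzyme that makes histamine, lies at chr2:126593667-126619299 and Epx, eosinophil peroxidase, at chr11:87864000-87875536, both on the minus strand. Prg2 and Prg3, which encode the major basic protein and its homologue, are neighbours 4.583 kb apart at chr2:84980461-84983632 and chr2:84988215-84993886 on the plus strand.

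Sequence shared with other genes could split few reads. Of all windows of 60 bases in the annotated transcripts, the length of the reads, none from 9 of the members occurred in another gene, and 53 windows of Ms4a2 (1.742%) occurred in Ms4a4b. The only annotated genes inside a member were the microRNA genes Mir6949 in Mcpt8 and Mir7007 in Cpa3, on the same strand, so reads of either pair cannot be told apart.

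In young mice the summed counts of the 10 genes were highest in GMPs and CLPs, followed by MPP3 and MPP2, although single genes had other orders. Together the genes made up 0.218% and 0.226% of all counts in the 2 young GMP libraries and 0.227% and 0.229% in the 2 young CLP libraries. The share was 0.0420% and 0.0424% in young MPP3 and 0.0175% and 0.0177% in young MPP2. All 10 genes were above 3 counts in both libraries in young GMPs, CLPs and MPP3, against 2 of 10 in young HSCs and 3 of 10 in young MEPs. In the comparison of GMPs with MEPs, averaged over both ages, 10 of 10 were called higher in GMPs at an adjusted p under 0.01, where 32.2% of the 14154 genes tested were called higher and 27.4% lower.

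**Figure D1:**
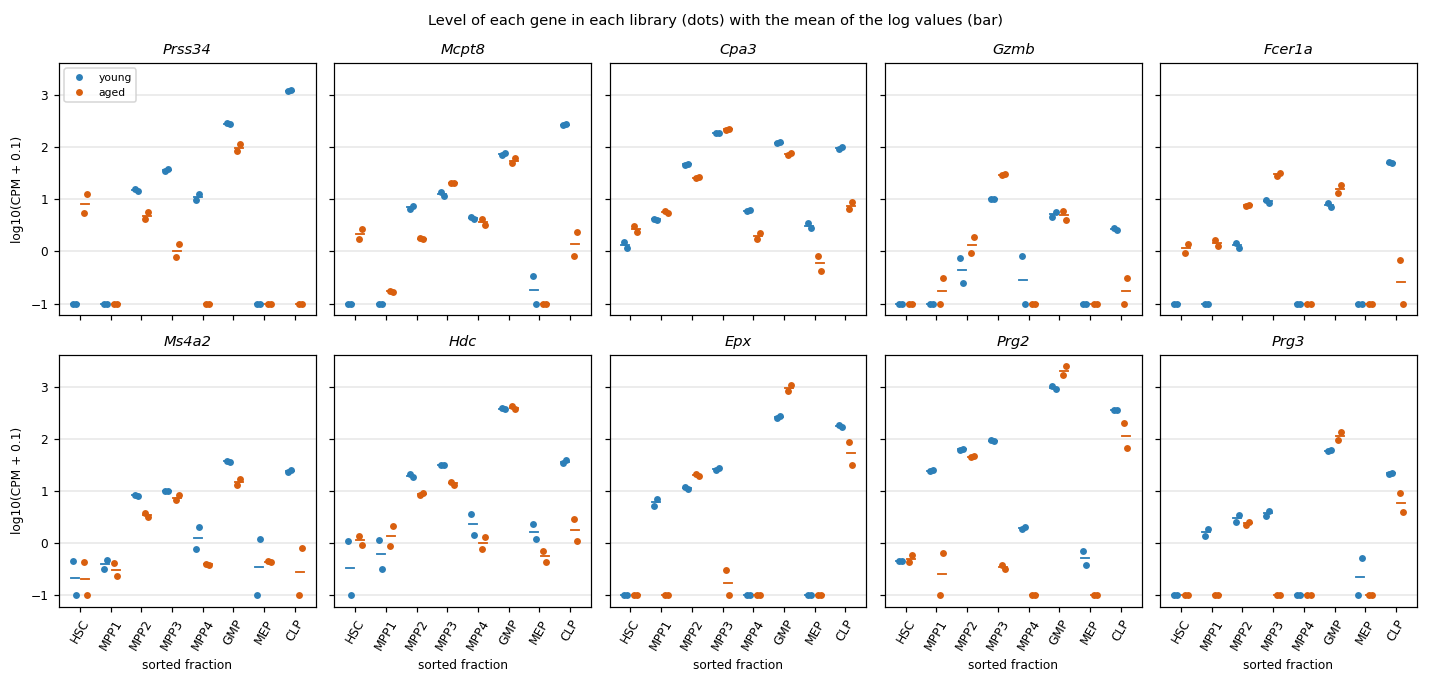
Level of each of the 10 genes in every library, as log10(CPM + 0.1) (y axis), by sorted fraction (x axis). Blue dots are young and orange dots aged libraries, bars are the mean of the 2 log values, and dots at -1 had no count. Prss34 stands at 1236 CPM on average in young CLPs and at 0 in aged CLPs, while Epx and Prg2 are highest in aged GMPs.

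The 2 fractions held different mixtures. Per kilobase of exon, which allows genes to be compared, Prss34 was the most abundant member in young CLPs at 1013 CPM per kb, followed by Prg2 at 436 and Mcpt8 at 273. In young GMPs Prg2 led at 1166 CPM per kb, followed by Prss34 at 234 and Epx at 96.9. In young MPP3 Cpa3 led at 125 CPM per kb, ahead of Prg2 at 111. The eosinophil granule genes Epx, Prg2 and Prg3 made up 58.2% and 59.1% of the summed CPM of the 10 genes in the young GMP libraries, 24.2% and 25.1% in young CLPs, 28.9% and 29.4% in young MPP3, 43.1% and 44.8% in young MPP2, and 84.8% and 88.1% in young MPP1.

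Among the proteases, Prss34 averaged 1236 ± 11.03 CPM (SD, n = 2) in young CLPs, 286 ± 8.37 in young GMPs, 100.4 ± 23.5 in aged GMPs and 36.5 ± 1.36 in young MPP3. It was above 3 counts in both libraries in 9 of 16 groups, and of the 8 neighbouring pairs in its order of levels only 2 overlapped, young MPP4 with aged HSCs and aged HSCs with aged MPP2. Mcpt8 took the same first 3 places, at 272 ± 7.42 CPM in young CLPs, 75.3 ± 4.46 in young GMPs and 56.2 ± 10.2 in aged GMPs. Cpa3, in contrast, was highest in aged MPP3 at 222 ± 2.51 CPM and young MPP3 at 189 ± 0.00103, and it was the only one of the 10 above 3 counts in both libraries of all 16 groups. Gzmb was also highest in aged MPP3, at 29.9 ± 1.18 CPM, then in young MPP3 at 10.1 ± 0.0682, and GMPs of both ages overlapped at 5.12 ± 0.817 (young) and 4.98 ± 1.45 (aged) CPM.

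The receptor subunits did not share one order. Fcer1a averaged 50.4 ± 1.31 CPM in young CLPs, 30.2 ± 2.77 in aged MPP3 and 16.03 ± 3.98 in aged GMPs. Ms4a2 averaged 37.3 ± 0.624 CPM in young GMPs, 24.2 ± 2.11 in young CLPs and 15.2 ± 2.98 in aged GMPs. Hdc was a GMP gene, with 400.3 ± 36.9 CPM in aged and 385 ± 6.62 in young GMPs, whose libraries overlapped, and 36.9 ± 3.46 in the next group, young CLPs. The 3 eosinophil genes shared their first 4 groups, which were aged GMPs, young GMPs, young CLPs and aged CLPs. For Epx these stood at 953 ± 168, 265 ± 21.9, 176 ± 11.7 and 60.5 ± 40.2 CPM, and for Prg2 at 2113 ± 566, 977 ± 69.3, 365 ± 0.593 and 133 ± 93.5 CPM.

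Over the 16 group means of log2 CPM, the 3 pairs among Epx, Prg2 and Prg3 had Pearson correlations of 0.973 to 0.987. The 21 pairs among the other 7 genes ranged from 0.659 to 0.942 with a median of 0.861, and the 21 pairs across both sets from 0.534 to 0.836 with a median of 0.690. These values describe 16 groups that share fractions and depth. By the same measure the genes most like Epx were Ear7 (0.989), Prg3 (0.987) and Ear1 (0.983), where Ear genes encode ribonucleases of eosinophil granules. Those most like Hdc were Fcgr3 (0.975), Igsf6 (0.968) and Cebpe (0.957), and those most like Ms4a2 were Kcne3 (0.957), Hdc (0.942) and Pilrb2 (0.918). Cpa3 was most like Gzmb (0.932), Ms4a2 (0.911) and Fcer1a (0.891), Gzmb like Cpa3 (0.932), Fcer1a (0.886) and Adora3 (0.874), and Fcer1a like Cpa3 (0.891), Gzmb (0.886) and Lrg1 (0.856). Prss34 was most like Mcpt8 (0.881), Adgre1 (0.878) and Kcnk13 (0.869), while Mcpt8 was most like Ccr1 (0.922), Trem1 (0.902) and Myo18b (0.883). Prg2 was most like Epx (0.982), Ear7 (0.980) and Ear1 (0.979), and Prg3 like Ear7 (0.988), Epx (0.987) and Prg2 (0.973). The choice depends on the prior count added before taking logs. With 0.5 in place of 2, Mcpt8 was most like Trem1 (0.909), Pi16 (0.895) and Siglece (0.885), Fcer1a was most like Wfdc21 (0.884), and only Cpa3 and Epx had the same 3 genes.

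The comparison of aged with young cells was made within each fraction. A gene is called higher or lower at an adjusted p under 0.01 in edgeR's quasi-likelihood test over 14154 genes. For the 10 members the calls are a description, and the share of all genes called in this test is given beside its counts by fraction. Over the 8 fractions 34 calls were made for the members, 8 of them higher and 26 lower in aged cells. Of the 26 lower calls, 10 were in CLPs. By fraction, 3.74% to 10.3% of all genes tested were called higher and 1.66% to 11.7% lower.

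In CLPs all 10 genes were called lower in aged than in young cells, where 4.73% of all genes tested were called lower and 5.71% higher. Prss34 had 15610 and 16148 counts in the 2 young libraries and 0 and 0 in the aged ones, which is at least 5769-fold lower against a floor of 3 counts per library. Mcpt8 had 3390 and 3599 counts in young and 10 and 31 in aged CLPs, 186-fold lower in mean CPM, and Fcer1a had 652 and 642 in young and 8 and 0 in aged CLPs, 177-fold lower. Prss34 and Mcpt8, among the most abundant members in young CLPs, and the receptor alpha chain were at low counts or at 0 in aged CLPs. Ms4a2 went from 289 and 334 counts to 0 and 10, and Hdc from 438 and 511 to 40 and 14. Cpa3 had 1199 and 1307 counts in young and 89 and 121 in aged CLPs, 13-fold lower, with a fitted log2 difference of -3.68 ± 0.12 (SE). Gzmb was low in both ages, with 34 and 32 counts against 0 and 3.

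The eosinophil genes fell by smaller folds in CLPs, a difference that was not tested, and their aged duplicates were far apart. Epx had 2337 and 2172 counts in young and 1246 and 449 in aged CLPs, 2.90-fold lower (log2 -1.51 ± 0.31). Prg2 had 4647 and 4736 counts in young and 2796 and 941 in aged CLPs, 2.74-fold lower (log2 -1.42 ± 0.30). Prg3 had 275 and 293 counts against 127 and 54, 3.42-fold lower. Their summed CPM was 555 and 571 in young and 298 and 103 in aged CLPs, a ratio of 2.88 between the aged duplicates against 1.03 between the young ones. The eosinophil genes made up 96.6% and 89.0% of the members' summed CPM in the aged CLP libraries. Fitted on the 4 CLP libraries alone, Epx, Prg2, Prg3 and Gzmb were not called and the other 6 were. With each of the 4 CLP libraries left out in turn, the log2 difference ranged from -2.46 to -0.95 for Epx and from -2.45 to -0.84 for Prg2. Without aged CLP replicate 1 the log2 differences were -2.46 for Epx, -2.45 for Prg2, -2.53 for Prg3, -5.20 for Hdc and -5.08 for Ms4a2. Without aged CLP replicate 2 they were -8.53 for Mcpt8 and -6.41 for Fcer1a, and Prg3 at -1.25 was not called. Without young CLP replicate 1 or replicate 2, 6 of the 10 were called, and Epx, Prg2 and Prg3 were among those lost.

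Genes of other lineages also differed between aged and young CLPs. The neutrophil list (10 genes, among them Elane, Mpo and S100a8) summed to 1925 to 1960 CPM in young and 336 to 364 CPM in aged CLPs, where 0 and 1 of its genes had no count, and all 10 were called lower, with Ms4a3 at log2 -5.81 ± 0.51 (adjusted p = 6.3e-08) and Elane at -5.70 ± 0.51 (adjusted p = 8.4e-08). The macrophage list summed to 176 to 194 CPM in young and 46.7 to 71.7 in aged CLPs, and 5 of its 6 genes were called lower. The B lineage list fell from 2494 to 2544 CPM in young to 1173 to 1222 CPM in aged CLPs, whereas the plasmacytoid dendritic list was at 2070 to 2120 CPM in young and 3743 to 5292 CPM in aged CLPs. The erythroid list was at 1020 to 1066 CPM in young and 206 to 332 CPM in aged CLPs, with 2 of 7 genes called lower. The megakaryocyte list was at 34.4 to 37.0 CPM in young and 95.6 to 149 CPM in aged CLPs, with 3 of 4 genes called higher. Il7r, the receptor behind the gate, was at 151 CPM in young and 183 to 185 CPM in aged CLPs. Ly6a, the gene of Sca-1 in the same gate, was at 33.0 to 34.1 CPM in young and 199 to 204 CPM in aged CLPs. The part of these lists and gate genes in the members' differences was not tested.

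**Figure D2:**
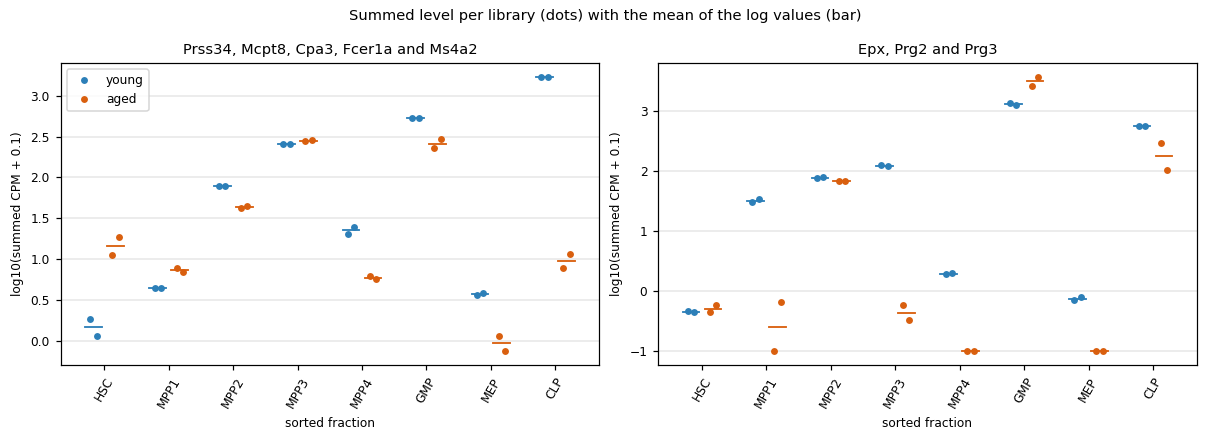
Summed level per library of 5 basophil and mast cell genes (left panel) and of the 3 eosinophil granule genes (right panel), as log10(summed CPM + 0.1) on the y axis, by sorted fraction on the x axis, with young libraries in blue, aged in orange and bars for the mean of the 2 log values. The left sum is 1664 and 1697 CPM in young and 7.64 and 11.6 CPM in aged CLPs, while the right sum is 1271 and 1335 CPM in young and 2645 and 3721 CPM in aged GMPs.

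In GMPs 3 members were called, in both directions. Prss34 had 5070 and 4958 counts in young and 1103 and 1572 in aged GMPs, 2.84-fold lower (log2 -1.56 ± 0.23). Cpa3 had 2080 and 2211 counts in young and 926 and 1029 in aged GMPs, 1.66-fold lower (log2 -0.79 ± 0.10). Epx had 4344 and 4977 counts in young and 10988 and 14390 in aged GMPs, 3.59-fold higher (log2 1.79 ± 0.31). Prss34 and Cpa3 were called lower and Epx was called higher. Among all genes tested in GMPs 9.93% were called higher and 8.97% lower, which puts the members' counts near the shares over all genes.

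The other 7 members in GMPs were not called. Prg2 had 17845 and 16451 counts in young and 22544 and 33738 in aged GMPs, a ratio of 2.16 in mean CPM (log2 1.06 ± 0.30), and Prg3 had 1020 and 1094 against 1277 and 1837, a ratio of 1.94. Fcer1a had 148 and 127 counts in young and 174 and 253 in aged GMPs, a ratio of 2.05. Ms4a2, the partner chain of Fcer1a, had 656 and 653 counts in young and 173 and 233 in aged GMPs, which is 2.45 times lower (log2 -1.34 ± 0.47). Mcpt8 had 1254 and 1390 counts in young and 644 and 851 in aged GMPs, and Hdc with 6784 and 6749 against 5612 and 5024 overlapped in CPM, as did Gzmb with 79 and 101 against 79 and 53. DESeq2 additionally called Mcpt8 and Fcer1a in GMPs.

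Epx, Prg2 and Prg3 made up 80.0% and 84.7% of the members' summed CPM in the aged GMP libraries, and the 10 genes together made up 0.331% and 0.439% of all counts there. The neutrophil list was at 74654 to 75151 CPM in young and 77180 to 78016 CPM in aged GMPs, with 4 of its 10 genes called lower. The erythroid list fell from 425 to 480 CPM in young to 30.7 to 64.3 CPM in aged GMPs. The part of these lists was not tested.

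In MPP3 Prss34 and the eosinophil genes were lower in aged cells while Fcer1a was higher. Prss34 had 480 and 457 counts in young and 10 and 17 in aged MPP3, 37.2-fold lower (log2 -5.17 ± 0.39). Epx had 337 and 335 counts in young and 3 and 0 in aged MPP3, at least 121-fold lower. Prg2 had 1301 and 1095 counts in young and 4 and 3 in aged MPP3, 372-fold lower (log2 -8.43 ± 0.61), and Prg3 had 44 and 49 against 0 and 0, at least 16.9-fold lower. In the same libraries Fcer1a had 131 and 104 counts in young and 410 and 429 in aged MPP3, 3.31-fold higher (log2 1.77 ± 0.32). Mcpt8, Cpa3 and Gzmb were not called, with 183 and 139 against 303 and 278 counts for Mcpt8, 2550 and 2303 against 3188 and 2977 for Cpa3, and 136 and 124 against 422 and 410 for Gzmb. DESeq2 called these 3 higher. Hdc fell from 419 and 392 counts to 217 and 177 (log2 -1.11 ± 0.29), a call that DESeq2 did not make and that was lost with each of the 4 libraries left out in turn (log2 -1.172 to -0.997). Without young MPP3 replicate 2 Fcer1a was not called either, at log2 1.72. Ms4a2 had 133 and 124 counts in young and 95 and 110 in aged MPP3.

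In MPP3, 1 member was called higher, where 8.14% of all genes were, and 5 were called lower, where 5.79% were. The ratio of Prss34 to Mcpt8 counts was 2.62 and 3.29 in the young and 0.0330 and 0.0612 in the aged MPP3 libraries. In young CLPs it was 4.49 and 4.60, in young GMPs 3.57 and 4.04, in aged GMPs 1.71 and 1.85, and in aged HSCs 3.32 and 4.79. Aged MPP3 was the lowest of the groups in which both genes exceeded 3 counts in both libraries, and in aged CLPs and aged MPP4 Prss34 had no count beside Mcpt8. The neutrophil list was at 4937 to 5176 CPM in young and 2371 to 2381 CPM in aged MPP3, and the erythroid list fell from 1842 to 1991 CPM in young to 855 to 886 CPM in aged MPP3. Their part was not tested.

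Mast cell protease genes of the members' families had most of their counts in MPP3. The tryptase gene Tpsb2 had 2316 and 2118 counts in young and 1471 and 1508 in aged MPP3 (log2 -0.64 ± 0.24, adjusted p = 0.077), against 0 counts in all GMP and CLP libraries. The chymase gene Cma1 had 1540 and 1420 counts in young and 1741 and 1672 in aged MPP3 (log2 0.14 ± 0.35, adjusted p = 0.85), and Mcpt4 had 375 and 319 against 187 and 181 (log2 -0.98 ± 0.30, adjusted p = 0.050). None of the 3 passed the threshold in MPP3. In MPP2 Tpsb2 and Mcpt4 were called higher in aged cells. Tpsb2 had 4 and 10 counts in young and 67 and 61 in aged MPP2 (log2 3.05 ± 0.47, adjusted p = 0.0015, lost with 2 of 4 libraries left out in turn) and Mcpt4 had 0 and 0 against 14 and 13, which passed the threshold with an adjusted p of 0.0035. Cma1 did not pass there, with 10 and 2 counts in young and 60 and 52 in aged MPP2 (log2 3.07 ± 0.69, adjusted p = 0.012).

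In MPP2 Fcer1a was called higher and 3 protease genes were called lower. Fcer1a had 17 and 14 counts in young and 104 and 116 in aged MPP2, 6.26-fold higher (log2 2.69 ± 0.41). Mcpt8 had 80 and 99 counts in young and 24 and 24 in aged MPP2, 4.19-fold lower (log2 -2.01 ± 0.32), and Prss34 had 194 and 188 against 58 and 83, 3.07-fold lower (log2 -1.56 ± 0.32). Cpa3 had 574 and 643 counts in young and 367 and 392 in aged MPP2, 1.81-fold lower (log2 -0.80 ± 0.11). These 4 were the members called, 1 higher where 4.49% of all genes were and 3 lower where 3.31% were. The call of Prss34 was lost with each of the 4 libraries left out in turn (log2 -1.79 to -1.33), and that of Fcer1a without young MPP2 replicate 2 (log2 2.52). Hdc (264 and 242 against 117 and 135 counts) and Ms4a2 (104 and 106 against 52 and 46) were not called, nor was Gzmb, with 8 and 2 counts in young and 12 and 27 in aged MPP2. Epx had 149 and 141 counts in young and 303 and 291 in aged MPP2, a ratio of 1.81 that was not called, whereas Prg2 had 760 and 865 against 644 and 687, and Prg3 overlapped at 31 and 45 against 31 and 37. The neutrophil list was at 2824 to 2945 CPM in young and 1985 to 2003 CPM in aged MPP2 (5 of 10 called lower), the erythroid list at 2005 to 2150 against 1141 to 1158 CPM (5 of 7 lower), and the macrophage list at 137 to 149.97 against 48.8 to 49.6 CPM (2 of 6 lower). Their part was not tested.

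The make-up of the eosinophil genes is given by ratios of their counts. The ratio of Epx to Prg2 counts was 0.163 to 0.196 in young and 0.424 to 0.470 in aged MPP2, and 0.243 to 0.303 in young and 0.427 to 0.487 in aged GMPs. The CLP libraries of both ages overlapped, at 0.459 to 0.503 (young) and 0.446 to 0.477 (aged). The ratio of Prg3 to Prg2 ranged only from 0.0338 to 0.0704 over the young and aged MPP2, GMP and CLP libraries and the young MPP1 and MPP3 libraries. With 2 libraries against 2 no exact permutation test of such a ratio can reach 0.05, so none is given.

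In MPP1 the 3 eosinophil genes were called lower in aged cells. Epx had 69 and 93 counts in young and 0 and 0 in aged MPP1, at least 27.6-fold lower. Prg2 had 317 and 341 counts in young and 0 and 8 in aged MPP1, 89.2-fold lower (log2 -6.31 ± 0.66), and Prg3 had 17 and 24 against 0 and 0, at least 6.99-fold lower. Fcer1a went the other way, with 0 and 0 counts in young and 20 and 17 in aged MPP1, at least 6.05-fold higher. These were the 4 calls, 1 higher where 4.71% of all genes were and 3 lower where 2.09% were. Cpa3 had 55 and 54 counts in young and 76 and 79 in aged MPP1 and was not called. When a replicate block was added to the fit, Fcer1a and Prg3 were not called either. With each of the 4 MPP1 libraries left out in turn 2 members were called, and the log2 difference of Prg2 was -5.39 without aged MPP1 replicate 1. Prss34 had no count in any MPP1 library of either age. The macrophage list was at 31.4 to 34.6 CPM in young and 15.3 to 15.7 CPM in aged MPP1 and the neutrophil list at 331 to 348 against 472 to 740.1 CPM, and their part was not tested.

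In HSCs 4 members were called higher in aged cells, 3 of them with no count in young HSCs. Prss34 had 0 and 0 counts in young and 63 and 182 in aged HSCs, at least 37.4-fold higher, and Mcpt8 had 0 and 0 against 19 and 38, at least 8.84-fold higher. Fcer1a had 0 and 0 counts in young and 10 and 19 in aged HSCs, at least 4.51-fold higher, and Cpa3 had 16 and 15 against 36 and 33, 2.15-fold higher (log2 1.15 ± 0.24). These 4 were called higher where 3.74% of all genes were, and 0 members were called lower where 1.66% were. No eosinophil gene exceeded 7 counts in any HSC library. The call of Cpa3 was lost without either young HSC replicate (log2 1.31 without replicate 1 and 0.89 without replicate 2) and without aged HSC replicate 1 (log2 0.94), and 2 to 3 of the 4 calls were made with each HSC library left out in turn. With the 4 HSC libraries alone 1 member was called. When a replicate block was added to the fit, Fcer1a was not called. The neutrophil list was at 303 to 326 CPM in young and 690 to 843 CPM in aged HSCs, with 6 of 10 genes called higher, and its part in these differences was not tested.

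In MPP4 Prss34 had 145 and 156 counts in young and 0 and 0 in aged cells, at least 50.3-fold lower, and Cpa3 had 88 and 76 against 22 and 30, 3.14-fold lower (log2 -1.55 ± 0.18). Mcpt8 overlapped in the same libraries, with 67 and 51 counts in young and 56 and 44 in aged MPP4. Prg2 had 27 and 24 counts in young and 0 and 0 in aged MPP4, at least 8.45-fold lower, and was called by DESeq2 but not by edgeR. Fcer1a, Epx and Prg3 had no count in any MPP4 library. Thus 2 members were called lower where 6.27% of all genes were, and 0 higher where 10.3% were. The erythroid list was at 1151 to 1385 CPM in young and 571 to 693 CPM in aged MPP4 and the macrophage list at 65.9 to 68.1 against 34.9 to 38.8 CPM, and their part was not tested.

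In MEPs the genes were near the floor. Cpa3 had 55 and 39 counts in young and 8 and 4 in aged MEPs, 5.80-fold lower (log2 -2.54 ± 0.28), and was the 1 member called lower, where 11.7% of all genes were called lower and 9.08% higher. Without aged MEP replicate 1 its log2 difference was -3.20, and with the 4 MEP libraries alone it was not called. Hdc had 36 and 16 counts in young and 7 and 4 in aged MEPs, and no other member exceeded 16 counts in a MEP library. The B lineage list was at 176 to 185 CPM in young and 0.412 to 1.16 CPM in aged MEPs (7 of 8 called lower), the neutrophil list at 254 to 282 against 27.3 to 119 CPM (5 of 10 lower, 1 higher), and the macrophage list at 6.26 to 8.56 against 0 to 0.825 CPM (4 of 6 lower). Their part was not tested.

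**Figure D3:**
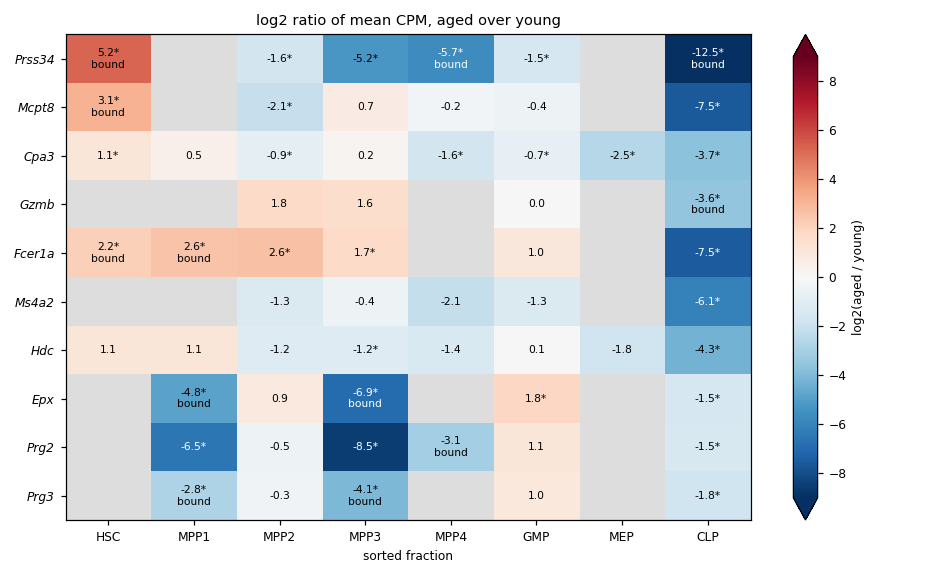
Log2 ratio of mean CPM in aged over young cells for each of the 10 genes (rows) in each sorted fraction (columns), with red for higher and blue for lower in aged cells and the colour scale ending at 9 in both directions. A star marks a gene called by edgeR, "bound" marks a ratio computed against a floor of 3 counts per library, and grey cells had both means under 1 CPM or a bound under 3. Every cell of the CLP column is blue, while Fcer1a is red in HSCs, MPP1, MPP2, MPP3 and GMPs.

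The genes that work with the members were tested in 7 lists of 97 genes, 92 of which were in the table and 82 of which were tested. These lists were also drawn up with results of these libraries known. Calls were fewest in MPP1, with 7 of the 82 (2 higher, 5 lower), and HSCs, with 9 (8 higher, 1 lower). MPP2 had 15 calls (5 higher, 10 lower), MPP3 had 19 (1 higher, 18 lower) and MPP4 had 16 (4 higher, 12 lower). GMPs with 22 calls (15 higher, 7 lower) stood against MEPs with 26 (2 higher, 24 lower), and CLPs had 31 (12 higher, 19 lower). Of all genes tested 3.74% to 10.3% were called higher and 1.66% to 11.7% lower, by fraction as above. The median log2 difference of the 82 was -0.22 in MPP3 against -0.04 over all genes tested, -0.15 in CLPs against 0.00, and 0.06 in GMPs against 0.00. Fitted on the 4 CLP libraries alone, 6 of the 82 were called in CLPs in place of 31, and the CLP calls of Gata2, Cebpe, Ctsg, Fyn and Ptpn6 given below were not made.

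**Figure D4:**
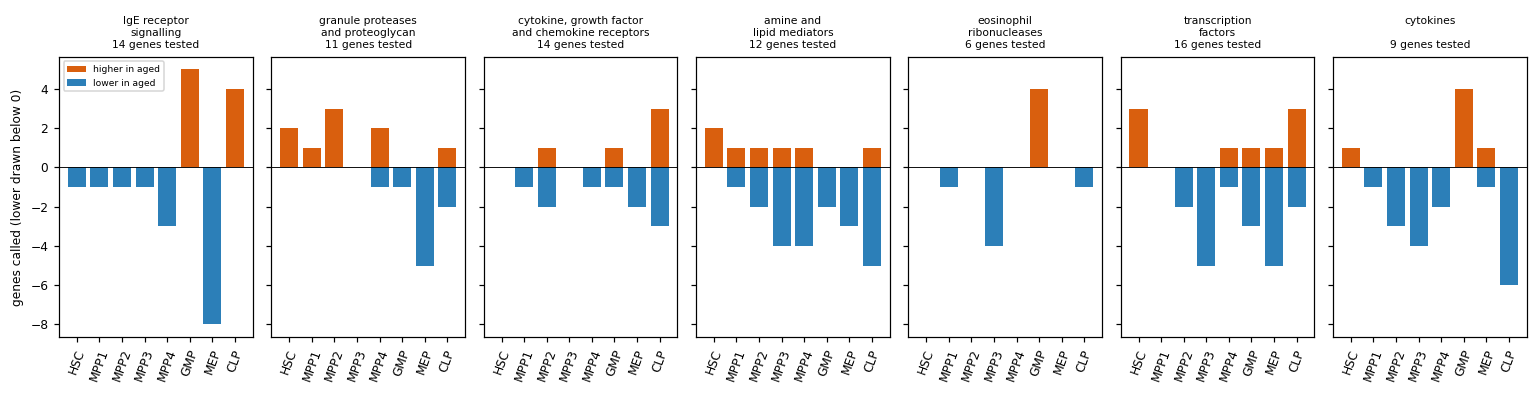
Number of genes called higher (orange, above 0) or lower (blue, below 0) in aged cells, by sorted fraction on the x axis, for 7 lists of genes that work with the members, 1 panel per list with the number of genes tested in its title. The 6 eosinophil ribonucleases have 4 calls higher in GMPs and 4 lower in MPP3.

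Of 6 eosinophil ribonucleases tested, 4 were called higher in aged GMPs, with Ear1 at log2 2.33 ± 0.48 (adjusted p = 0.0017), Ear10 at 2.03 ± 0.48 (adjusted p = 0.0034) and Ear3 at 1.87 ± 0.46 (adjusted p = 0.0035). Each of these 3 calls was lost with 3 of the 4 GMP libraries left out in turn (adjusted p up to 0.031, 0.069 and 0.075). In MPP3 4 of 6 were called lower. Ear3 was at log2 -4.47 ± 0.71 (adjusted p = 9.6e-05) and kept its call with each library left out, and Ear1 had 119 and 120 counts in young and 0 and 0 in aged MPP3. Ear7 was called lower in MPP1, where it had 14 and 15 counts in young and 0 and 2 in aged cells, and in CLPs at log2 -1.47 ± 0.36 (adjusted p = 0.0087), the latter lost with 3 of 4 libraries left out (adjusted p up to 0.083). In MPP2 Ear7, at log2 -1.37 ± 0.44 (adjusted p = 0.046), had the lowest adjusted p of the 6 and did not pass, and the summed Ear level was 16.7 and 18.5 CPM in young and 7.46 and 8.13 CPM in aged cells, while the counts of Epx stood higher there. Near-identical Ear copies can share reads, so the split of counts among them is uncertain. The summed Ear level was 53.2 and 53.4 CPM in young and 31.8 and 8.08 CPM in aged CLPs, and aged CLP replicate 1 was the higher one, as it was for Epx, Prg2 and Prg3.

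Of the genes of amine and lipid mediators, 5 of 12 were called lower and 1 higher in aged CLPs. Cyp11a1, a steroidogenic enzyme, had 194 and 148 counts in young and 0 and 0 in aged CLPs, and the lipoxygenase gene Alox15 had 261 and 349 against 0 and 3. Alox5, the first enzyme of leukotriene synthesis, was at log2 -5.18 ± 0.38 (adjusted p = 1.0e-08). Slc18a2, which loads amines into granules, was lower in aged GMPs at log2 -0.98 ± 0.16 (adjusted p = 7.3e-05) and in aged MEPs at -2.13 ± 0.19 (adjusted p = 2.4e-08). In HSCs Hpgds, the prostaglandin D synthase of mast cells, rose by log2 2.67 ± 0.39 (adjusted p = 0.00010). Alox15 had 121 and 89 counts in young and 0 and 0 in aged MPP3 and was called lower there.

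Of the 14 IgE receptor signalling genes, the shared gamma chain Fcer1g fell in MPP1 to MPP4, by log2 -0.96 ± 0.16, -0.95 ± 0.16, -1.04 ± 0.15 and -1.14 ± 0.17 (adjusted p from 3.9e-05 to 4.0e-04), while Fcer1a rose in MPP1 to MPP3. The MPP1 call was lost with 1 of 4 libraries left out (adjusted p = 0.012). In CLPs Fcer1g did not pass (log2 0.30, adjusted p = 0.14), and 4 of 14 genes were called higher, with the kinase gene Fyn at 1.11 ± 0.13 (adjusted p = 3.7e-06) and the phosphatase gene Ptpn6 at 0.74 ± 0.09 (adjusted p = 4.7e-06). In aged GMPs 5 of 14 were higher, among them the adaptor gene Gab2 at 0.87 ± 0.17 (adjusted p = 0.000415) and the kinase gene Syk at 0.50 ± 0.09 (adjusted p = 2.6e-04). In aged MEPs 8 of 14 were lower, led by Plcg2 at -1.90 ± 0.09 (adjusted p = 8.2e-13).

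Among transcription factors, Gata2, which basophils and mast cells require, fell only in CLPs among the 8 fractions, from 595 and 700 counts to 9 and 58 (log2 -4.38 ± 0.30, adjusted p = 1.5e-09). Gata1, which eosinophils and mast cells require, fell in MPP3 by -1.62 ± 0.24 (adjusted p = 4.3e-05), in GMPs by -0.98 ± 0.21 (adjusted p = 0.0015) and in MPP2 by -0.64 ± 0.16 (adjusted p = 0.0079). The GMP and MPP2 calls were lost with 3 and 4 of the 4 libraries left out in turn (adjusted p up to 0.019 and 0.13). Cebpe, required for late granulocyte and eosinophil development, fell in CLPs by -2.38 ± 0.41 (adjusted p = 3.2e-04) and in MPP3 by -2.33 ± 0.36 (adjusted p = 7.7e-05) and kept both calls with each library left out. In CLPs Gata2 was at -6.24 and Ctsg at -3.13 without aged CLP replicate 2, and Cebpe at -3.33 without aged CLP replicate 1.

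Among receptors, Cd200r3, a basophil and mast cell receptor, had 126 and 136 counts in young and 0 and 0 in aged CLPs. Il1rl1, the IL-33 receptor, fell in aged CLPs by -2.63 ± 0.52 (adjusted p = 0.0012) and in aged GMPs by -1.45 ± 0.36 (adjusted p = 0.0048), calls lost with 2 and 3 of 4 libraries left out (adjusted p up to 0.028 and 0.11). Siglecf, an eosinophil lectin, fell in aged CLPs by -1.38 ± 0.36 (adjusted p = 0.0094), lost with 3 of 4 (adjusted p up to 0.20). Csf2rb, the chain shared by the receptors for IL-3, IL-5 and GM-CSF, rose in CLPs from 1824 and 1960 counts to 4409 and 3305 (log2 0.92, adjusted p = 3.4e-05). Il3ra passed in none of the 8 fractions, and Kit, the receptor for stem cell factor, fell in MPP1, MPP2 and MPP4 by 0.44, 0.48 and 0.50 and rose in GMPs by 0.41 on the log2 scale. Each of the 4 Kit calls was lost with at least 3 of the 4 libraries of its fraction left out in turn.

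Of the granule list, the tetraspanin gene Cd63, a surface marker of degranulated basophils, fell in CLPs from 708 and 749 counts to 78 and 76 (log2 -3.35 ± 0.13, adjusted p = 1.3e-13). Ctsg, the neighbour of Mcpt8 on chromosome 14, fell in CLPs by -2.29 ± 0.27 (adjusted p = 4.9e-06) and rose in MPP4 by 2.54 ± 0.28 (adjusted p = 1.1e-06). Among cytokines, Ccl3 and Ccl4 rose in aged GMPs by 4.56 ± 0.26 (adjusted p = 7.3e-10) and 2.97 ± 0.43 (adjusted p = 2.8e-05) and fell in aged MPP2, MPP3 and MPP4. Ccl3 also fell in CLPs by -1.69 ± 0.14 (adjusted p = 1.1e-07). The MPP2 call of Ccl3 was lost with 2 of 4 libraries left out (adjusted p up to 0.014).

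Between fractions, 55 of the 82 companion genes were higher and 11 lower in GMPs than in MEPs over both ages, where 32.2% and 27.4% of all genes were. Ear7 led at 11.91 ± 0.58 (adjusted p = 4.7e-12), and Gata1 was lower at -5.89 (adjusted p = 4.4e-20). Between MPP2 and the mean of MPP3 and MPP4, 17 were higher and 20 lower in MPP2, where 6.56% and 6.62% of all genes were. Gata1 was 4.15 ± 0.13 higher on the log2 scale in MPP2 (adjusted p = 1.5e-15), Slc18a2 1.84 ± 0.08 higher (adjusted p = 1.1e-13) and Ccl3 lower at -3.52 ± 0.10 (adjusted p = 2.7e-15). Whether the age difference in CLPs differed from the mean of the other 7 fractions was tested as an interaction: 18 companion genes had a more positive and 7 a more negative difference in CLPs, where 8.49% and 9.02% of all genes did. Gata2 was lower in this contrast by -4.01 ± 0.31 (adjusted p = 1.4e-08) and Cd63 by -3.18 ± 0.13 (adjusted p = 8.1e-13).

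Levels of annotated genes next to the members were compared by their CPM. Gabpb1, next to Hdc, was at 113 CPM in young and 87.3 CPM in aged CLPs. Ms4a3, a marker of the neutrophil list 5.777 kb from Ms4a2, went from 24.8 to 0.428 CPM in CLPs, and Ctsg, 14.608 kb from Mcpt8, from 69.5 to 14.2 CPM. Mks1 lies 0.197 kb from Epx and was at 7.04 CPM in young and 13.8 CPM in aged GMPs. Cpb1 next to Cpa3, Gzmc and Atp12a next to Gzmb and the olfactory receptor genes next to Fcer1a and Epx had no count in any library.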

How the data were processed

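Bone marrow was sorted into 8 fractions from young and aged mice, and RNA was amplified (SMARTer Ultra Low Input) and sequenced as single reads of 60 bases. Per the study's methods and the submitters' processing notes, the authors aligned reads to mm10 with TopHat2 2.0.13 and Bowtie2 2.1.0, and deposited raw counts per gene made with StringTie. These deposited counts were analysed. The authors' normalized table (32 columns of per-sample values) and their 8 tables of comparisons, which hold fold changes and p-values, were not used.

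Counts of 32 libraries were fitted in edgeR 4.0.16 (R 4.3.3, limma 3.58.1) with TMM factors and 16 groups. Of 24421 genes, 14154 passed filterByExpr. The quasi-likelihood F-test was applied to 11 contrasts with Benjamini-Hochberg adjustment over all genes tested, and a gene was called at an adjusted p under 0.01. Log2 differences are fitted, with their SE, and folds are ratios of mean CPM, where CPM scales counts to the library's total over genes. With both libraries of a group at or under 3 counts, a fold is a bound against 3 counts per library. Library totals of 11237384 to 17723245 counts set that floor at 0.169 to 0.267 CPM. The biological coefficient of variation was 0.113. Duplicates differed by more than sampling noise (chi-square per degree of freedom 4.59 to 19.0). The scripts were tested on simulated data.

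The 10 members and the lists were chosen with earlier results of these data known. The text names all members, the 3 called genes of each list with the greatest change per contrast described, 7 fixed genes (Gata1, Gata2, Fcer1g, Kit, Il3ra, Csf2rb and Cebpe), the annotated neighbours and same-family genes of the members, and for each member the 3 genes with the most similar pattern over the 16 groups. From those lists examples are given. Correlations used edgeR's log2 CPM with a prior count of 2, which includes the TMM factors, unlike the CPM printed as levels. Alternatives were DESeq2 1.42.0, DESeq2 size factors, no filter, a threshold of 0.05, a replicate block, the 4 libraries of a fraction alone, and each library left out in turn.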

Additional observations from a re-analysis of the deposited data

Results flagged for a closer look

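For 5 of the members calls of both directions were made among the 8 fractions, and differences between single fractions were not tested for them. The contrast of the age difference in CLPs with the mean of the other 7 fractions is a description for the members. In it 0 of the 10 were called more positive, where 8.49% of all genes were. More negative were 3, where 9.02% of all genes were, and 7 were not called. Prss34 was at least 37.4-fold higher in aged HSCs. It was lower by 3.07-fold in aged MPP2, 37.2-fold in MPP3, at least 50.3-fold in MPP4, 2.84-fold in GMPs and at least 5769-fold in CLPs. Mcpt8 was at least 8.84-fold higher in aged HSCs and lower by 4.19-fold in MPP2 and 186-fold in CLPs. Cpa3 was 2.15-fold higher in aged HSCs and lower by 1.81-fold in MPP2, 3.14-fold in MPP4, 1.66-fold in GMPs, 5.80-fold in MEPs and 13-fold in CLPs. Fcer1a was higher by at least 4.51-fold in aged HSCs, at least 6.05-fold in MPP1, 6.26-fold in MPP2 and 3.31-fold in MPP3, and 177-fold lower in CLPs. With the replicate block Fcer1a was not called in HSCs or MPP1. Epx was lower by at least 27.6-fold in aged MPP1, at least 121-fold in MPP3 and 2.90-fold in CLPs, and 3.59-fold higher in GMPs.

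The age difference in CLPs differed from the mean of the other 7 fractions by the interaction test of edgeR for 18 companion genes with a more positive and 7 with a more negative value, of which up to 3 per list are given, 16 in all. It was more positive by log2 1.35 for Fyn (adjusted p = 4.7e-07), 1.11 for Fcer1g (1.36e-05), 0.76 for Lcp2 (7.69e-05), 0.58 for Ctsc (0.000457), 1.24 for Csf2rb2 (0.00192), 0.90 for Csf2rb (0.000225), 0.85 for Il4ra (1.1e-05), 1.02 for Alox5ap (1.58e-05) and 1.43 for Bhlhe40 (2.57e-05). It was more negative at log2 -3.18 for Cd63 (8.15e-13), -2.31 for Ctsg (7.24e-06), -4.01 for Gata2 (1.41e-08), -1.83 for Cebpe (0.00632), -1.78 for Osm (1.6e-06), -1.48 for Csf1 (0.00105) and -0.70 for Ccl9 (0.00156). Groups of 2 libraries are too small to look for a library that stands apart.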

How the results depend on the processing

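Direction was compared between the main fit and the alternative fits for 123 called results, and none of these reversed. The fits share the same counts, so an unchanged direction says little of how firm a call is. Of the 123, 44 were no longer called with the 4 libraries of the fraction alone and 12 with the replicate block. With DESeq2 and with no filter on low counts, 1 each was no longer called. Calls lost with a library left out are given above for single genes. The comparison left out member calls with a group at the floor of counts, such as those of Prss34 in HSCs, MPP4 and CLPs. It also left out part of the companion calls. Over the 8 fractions there were 34 calls of members and 145 of companion genes. DESeq2 size factors gave 34 and 150, no filter on low counts 36 and 148, DESeq2 41 and 200, a threshold of 0.05 44 and 203, and the 4 libraries of each fraction alone 35 and 114. For these other settings, and for those in the next paragraphs, the share of all genes called is not given beside the counts. Whether a larger count than in the main fit goes with more calls among all genes can therefore not be told. It is not read as a firmer result. The cause of each difference below was not tested. At 0.05, 7 members were called in GMPs, and 14, 14, 23 and 34 companion genes in HSCs, MPP1, MPP2 and GMPs. DESeq2 called 4, 5 and 2 members in MPP4, GMPs and MEPs and 14, 14 and 25 companion genes in HSCs, MPP1 and MPP4. With the 4 libraries alone, members called were 1 in HSCs, 8 in MPP2, 5 in GMPs, 0 in MEPs and 6 in CLPs, and companion genes 2 in HSCs, 18 in MPP1, 32 in MPP2, 11 in GMPs, 12 in MEPs and 6 in CLPs.

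With the replicate block there were 31 and 143 calls, with 2 members in MPP1. The member calls not made were those of Fcer1a in HSCs and of Fcer1a and Prg3 in MPP1. Within a fraction, the differences between duplicates correlated between ages at -0.0557 to 0.0704, so replicate numbers showed no pairing of young with aged libraries. Whether libraries of 1 age share a pool across fractions was not examined.

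With each library left out in turn, members called ranged from 6 to 9 in CLPs, 2 to 3 in HSCs, 2 to 2 in MPP1, 2 to 3 in MPP2 and 4 to 5 in MPP3, with 3 in GMPs, 2 in MPP4 and 1 in MEPs each time. Companion genes ranged from 22 to 28 in CLPs, 12 to 14 in GMPs, 3 to 8 in HSCs, 22 to 30 in MEPs, 1 to 3 in MPP1, 2 to 5 in MPP2, 12 to 13 in MPP3 and 8 to 12 in MPP4. A lone library was then assumed to vary like the other groups. Levels under 0.267 CPM could not be told from 0 in the shallowest library.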
